A study of Mus musculus with 12 samples.

Results

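The oligoadenylate synthetase genes (Oas genes) of the mouse were followed in glomeruli of 2 BALB/c substrains before and after injury with adriamycin (ADR). The 8 genes taken were Oas1a, Oas1b, Oas1c, Oas1g, Oas2, Oas3, Oasl1 and Oasl2, chosen by symbol among the 26264 gene symbols of the count tables. All 8 were among the 17002 genes that passed the filter on low counts, but Oas1a and Oas1g passed through the ByJcl libraries alone. The family was picked because earlier work on these counts had shown a difference between the substrains. Its values between substrains are therefore given as a description without p-values, and the p-values printed for it concern the response to ADR.

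Male BALB/cAJcl (AJcl; spelled BALB/cAjcl in the labels) and BALB/cByJcl (ByJcl) mice aged 8 weeks and bought from CLEA Japan were used, and neither substrain carried an engineered allele. Each substrain gave 3 libraries from untreated mice (baseline) and 3 libraries from mice killed 5 days (Day 5) after 1 intravenous dose of ADR, the anthracycline doxorubicin, at 10 mg/kg. The labels call the baseline mice untreated, while the study's methods give saline to control mice, so whether the baseline mice had a saline injection is unclear. Glomeruli, the filtering tufts of the kidney, were isolated with magnetic beads perfused into the vessels, so that podocytes, endothelial and mesangial cells and any trapped blood cells or tubule fragments were measured together as poly(A) RNA.

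Total counts ranged from 42198416 to 54687045 per library, and 3 counts, the floor used for genes at 0, came to at most 0.0693 in CPM, counts scaled to a common library size. AJcl Day 5 replicate 1 (A-ADR1 in the study, which left it out for reduced glomerular purity) was left out of the main fits. Its summed level of 8 tubule markers, 3915 CPM, was the highest of the 12 libraries (273 to 3872 CPM in the others), and its sum of 6 podocyte markers, 8472 CPM, was the lowest of the 6 AJcl libraries, while ByJcl Day 5 replicates 2 and 3, which were kept, had 6567 and 7410 CPM. The defining podocyte markers Nphs1, Podxl and Synpo were detected in every library. Levels are CPM scaled by the trimmed mean of M values (TMM) over the 12 libraries, fold changes are on the log2 scale, and SE is given for fitted values. The 2 times were deposited as separate tables, and how each table was made cannot be told apart from ADR. In whole glomeruli, fewer cells of a type and less RNA per cell cannot be told apart either.

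Oas proteins sense double-stranded RNA in the cytoplasm and then join ATP into short oligoadenylates with an unusual linkage (2-5A), a second messenger that leads to the decay of viral and cellular RNA. The genes are classical targets of interferons, which act through a transcription factor complex that holds Irf9 on a promoter element of repeated GAAA units, the interferon-stimulated response element. The mouse carries a single Oas2, a single Oas3, a row of Oas1 copies and the related genes Oasl1 and Oasl2. In the kidney this system is known mainly from viral infection and from interferon-driven disease of the glomerulus.

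In the GENCODE annotation of GRCm39 the genes lay in 2 runs on chromosome 5. The first run, chr5:115034997-115075974, held Oasl2 and Oasl1, both on the plus strand. The second, chr5:120868398-121059724, held 10 Oas genes over 191327 bases in the order Oas2, Oas3, Oas1e, Oas1c, Oas1b, Oas1f, Oas1h, Oas1g, Oas1d and Oas1a. Oas1a (ENSMUSG00000052776.12, chr5:121031070-121046449, minus strand) was annotated within the span of Oas1d on the other strand, with 0 exonic bases in common. Oas1b (ENSMUSG00000029605.18) covered chr5:120950700-120962228 on the plus strand, and Oas1g (ENSMUSG00000066861.16) covered chr5:121014205-121025676 on the minus strand.

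Promoter windows of RefSeq (GRCm38.p6; 250 bases before to 50 after the start) were given for 6 of the 8 genes, and each matched GRCm39 at 1 place. The pattern GAAANNGAAA on either strand, a core of the interferon-stimulated response element, occurred in 4 of the 6 windows, those of Oas1a, Oas1g, Oas1c and Oas3, and in 1131 of all 32851 windows (3.44%). These letters were not found in the windows of Oasl1 and Oasl2. The stretches that hold the pattern are shown because they set Oas1a and Oas1g, the genes with 0 counts in AJcl, beside genes counted in both substrains, namely Oas3 and, on either side of 1 shared upstream region, Oas1c and Oas1b; each is read 5′ to 3′ along its gene, and capitals mark the matches, which overlap by 4 bases where there are 2.
Oas1a: ttctcggGAAATGGAAACTGAAAatct
Oas1g: ttctcggGAAATGGAAACTGAAAat
Oas1c: atgggacTTTCAGTTTCCATTTCccgggaa
Oas3: gggaggaGAAAACGAAAgtgaagg
They lie at chr5:121045589-121045615, chr5:121025677-121025701, chr5:120950671-120950700 and chr5:120915783-120915806 of GRCm39, in that order, all on the minus strand. Oas1a and Oas1g had the same 16 capital letters close to their RefSeq starts, from base -20 to -5 in Oas1a and from base -18 to -3 in Oas1g, and their 250-base upstream sequences were identical at 158 of 248 aligned positions (63.7%). The capitals of Oas1c, from base -114 to -99, are the reverse complement of the same 16 letters. Read along Oas1b, which is transcribed the other way and for which no RefSeq window was given, these letters lie from base -22 to -7 of its GENCODE start. All 3 places thus hold the same 16 bases, beside genes at 0 in AJcl and beside genes counted there. GENCODE places the start of Oas1a 861 bases further upstream than RefSeq. The matches describe the reference sequence; no sequence of AJcl or ByJcl mice was examined.

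Oas1a and Oas1g, which encode active synthetases, were counted in ByJcl only. Oas1a had 0 counts in all 6 AJcl libraries. In ByJcl its level was 10.03, 16.1 and 8.85 CPM at baseline and 28.3, 12.5 and 12.7 CPM at Day 5, where replicate 1 stood far above the other two. Against the floor of 3 counts per library, the ByJcl mean was at least 168-fold higher than AJcl at baseline (11.7 ± 3.89 CPM, SD, n = 3) and at least 269-fold higher at Day 5 (17.9 ± 9.07 CPM, SD, n = 3). Oas1a took 44.0% to 56.7% of all counts on the Oas1 genes in the ByJcl libraries, without division by transcript length.

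Oas1g also had 0 counts in the 6 AJcl libraries. In ByJcl it reached 0.882, 3.27 and 1.91 CPM at baseline and 8.69, 3.33 and 2.80 CPM at Day 5, so that baseline and Day 5 overlapped. The ByJcl mean was at least 29.2-fold higher than AJcl at baseline (2.02 ± 1.20 CPM, SD, n = 3) and at least 74.5-fold higher at Day 5 (4.94 ± 3.26 CPM, SD, n = 3). Without ByJcl Day 5 replicate 1 the Day 5 bound was 46.3-fold. Oas1g counts were between 0.0880 and 0.307 of the Oas1a counts in the same library. Of the 150-base windows of the Oas1g transcripts, 26.3% occur also in Oas1a and in no other family gene, and 7.65% of the Oas1a windows occur in Oas1g. How the counting treated reads that fit both genes is not given in the sources used here, so the split between them is uncertain, while most of the sequence of each is not shared and both were at 0 in AJcl.

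Oas1b, known for the resistance of mice to flaviviruses, was counted in both substrains at very different levels. In AJcl it lay at 0.693, 0.696 and 1.22 CPM at baseline and at 1.35 and 2.05 CPM in the 2 fitted libraries of Day 5. In ByJcl it lay at 6.24, 8.35 and 6.69 CPM at baseline and at 9.09, 7.97 and 7.78 CPM at Day 5. The lowest ByJcl library was above the highest AJcl library at each time. The fitted log2 difference between the group means was 3.06 ± 0.27 (SE) at baseline, 8.32-fold, and 2.28 ± 0.30 at Day 5, 4.85-fold.

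Oas1c, the neighbour of Oas1b on the other strand, followed the same order with smaller differences. AJcl had 1.06, 0.844 and 1.33 CPM at baseline and 1.68 and 2.11 CPM at Day 5, and ByJcl had 2.90, 3.21 and 2.55 CPM at baseline and 3.58, 2.39 and 3.76 CPM at Day 5. The substrain groups did not overlap at either time, with log2 differences of 1.45 ± 0.26 at baseline and 0.77 ± 0.29 at Day 5. Oas1c is overlapped by Gm43069 on the opposite strand, Oas2 by Gm43068 and Gm73368, and Oasl1 by Gm13822 (82 bases). Gm72936 overlaps Oasl1 by 179 bases on the same strand. The library kit kept strand, but the strand setting of the counting is not given in the sources used here, so reads of these partners may be included.

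Oas2 and Oas3, which carry tandem copies of the synthetase unit, were the lowest of the genes counted in both substrains once levels were divided by transcript length. Oas2 was at 0.532, 0.844 and 0.769 CPM in AJcl at baseline and at 1.92, 2.81 and 1.57 CPM in ByJcl, a log2 difference of 1.57 ± 0.57. At Day 5 it was at 0.464 and 2.42 CPM in AJcl and at 6.72, 2.18 and 3.93 CPM in ByJcl, and the groups overlapped. Oas3 was at 0.739, 0.169 and 0.556 CPM in AJcl and at 0.516, 1.32 and 0.237 CPM in ByJcl at baseline, with overlap of the groups, although the highest ByJcl library lay above every AJcl library. At Day 5 it was at 0.508 and 0.765 CPM in AJcl and at 2.60, 0.965 and 0.983 CPM in ByJcl, where the groups did not overlap, with a log2 difference of 1.24 ± 0.77. Its counts lay between 6 and 116 per library, the lowest of the family members with counts in every library.

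Oasl1, which lacks synthetase activity and is known as a brake on translation of Irf7, was among the steadier genes of the family within groups. It was at 2.75, 2.51 and 2.54 CPM in AJcl and at 3.57, 4.43 and 3.97 CPM in ByJcl at baseline, a log2 difference of 0.65 ± 0.21. At Day 5 the AJcl libraries had 3.25 and 4.75 CPM and the ByJcl libraries 6.25, 4.73 and 5.20 CPM, which overlap. Oasl2 had the most counts of the family in every library. It was at 23.6, 22.8 and 20.6 CPM in AJcl and at 29.6, 42.7 and 28.5 CPM in ByJcl at baseline, a log2 difference of 0.62 ± 0.24. At Day 5 it was at 39.0 and 54.6 CPM in AJcl and at 88.6, 46.2 and 60.3 CPM in ByJcl, with overlap.

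**Figure D1:**
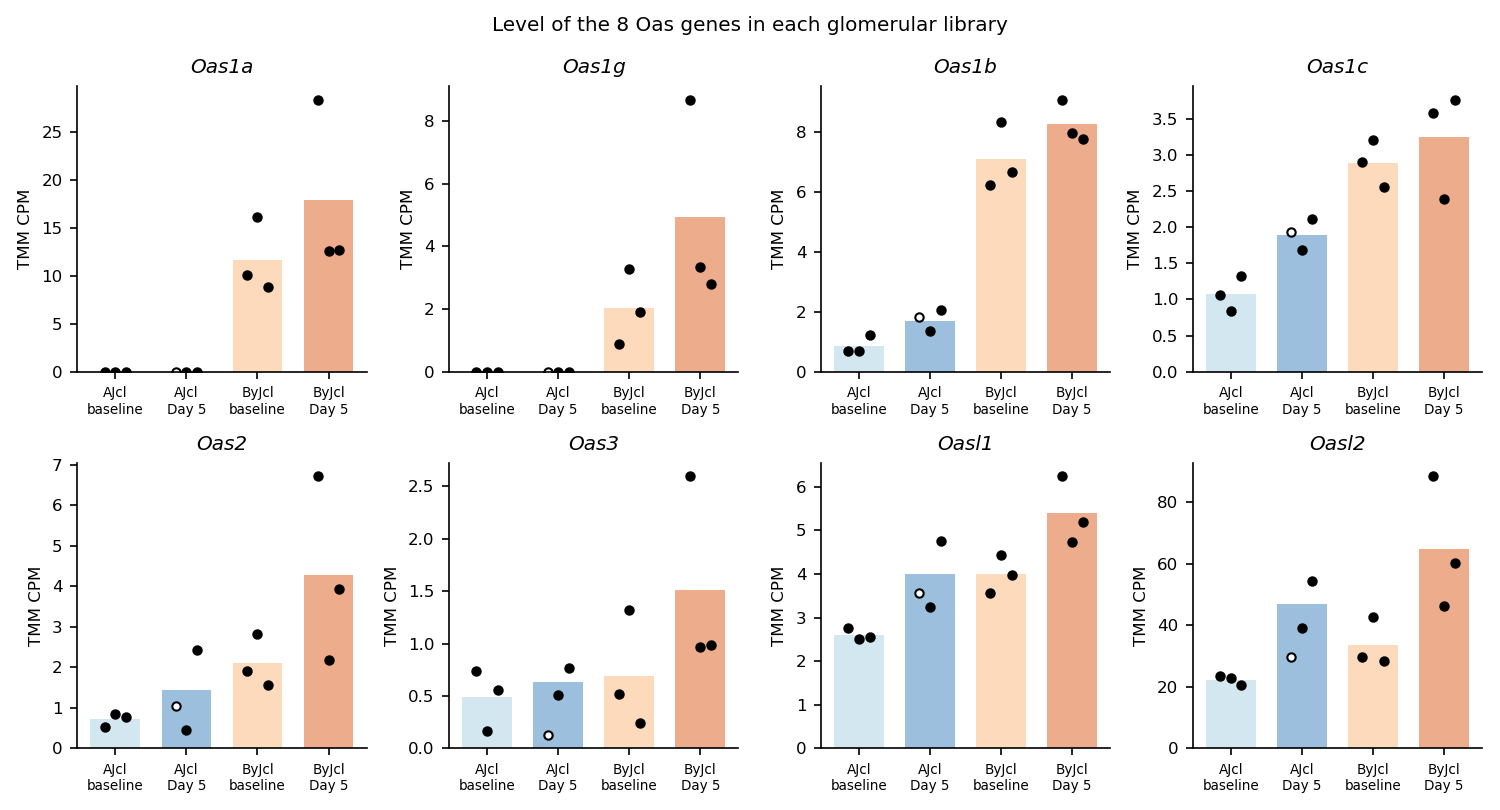
Level of each Oas gene in CPM (TMM-scaled; linear axis from 0, own scale per panel) in the 12 glomerular libraries, by substrain and time. Points are libraries, bars are group means, and the open point is AJcl Day 5 replicate 1, which is not part of the mean; Oas1a and Oas1g lie at 0 in AJcl, and ByJcl Day 5 replicate 1 is the highest library for 7 of the 8 genes.

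Over the 8 genes the median log2 difference between ByJcl and AJcl was 1.51 at baseline and 1.40 at Day 5, where the medians over all 17002 genes were 0.01 and 0.00. Oas1a and Oas1g had the largest values even at their lower bounds, so setting them to these bounds could not move the median. The ByJcl libraries lay above all AJcl libraries for 7 of 8 genes at baseline, all but Oas3, where 7.86% of all genes tested did so. At Day 5 this held for 5 of 8, all but Oas2, Oasl1 and Oasl2, against 16.6% of all genes. In edgeR's quasi-likelihood test 3 of the 8, Oas1a, Oas1b and Oas1g, were called at each time. Of all genes, 0.159% were called at baseline and 0.165% at Day 5. The family was chosen on this contrast, and Oas1a and Oas1g passed the filter through ByJcl alone. Nothing is therefore read from the calls, from the groups that did not overlap or from the medians.

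The other 4 genes of the second run were near 0. Oas1d and Oas1e had at most 2 counts in any library and Oas1f at most 4. Oas1h had 0 counts in the 6 AJcl libraries and at most 9 in a ByJcl library, with 0.105 ± 0.0963 CPM (SD, n = 3) at baseline and 0.155 ± 0.0566 CPM at Day 5. None of them passed the filter on low counts.

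The largest differences between substrains stood together in the second run. Oas1b, Oas1g and Oas1a, of which Oas1a is the last gene of the run, had larger values than Oas2, Oas3 and Oas1c at both times, with the untested genes Oas1f, Oas1h and Oas1d between them. At Day 5 the 95% interval of Oas1b, 1.62 to 2.94, overlapped those of Oas2 (0.16 to 2.95) and Oas3 (-0.45 to 2.93), so their order was not resolved. The protein-coding genes that flank the run had smaller values. Ptpn11 had a baseline level of 352 ± 32.9 CPM in the AJcl libraries and of 376 ± 9.02 CPM in the ByJcl libraries (SD, n = 3 each), a log2 difference of 0.13 ± 0.10, and Dtx1 and Rasal1 on the other side differed by -0.26 ± 0.51 and -0.28 ± 0.54. Rph3a, the first protein-coding gene past the Oas1a end of the run, had a mean of at most 0.0581 CPM in any group. Beside the first run, 2210016L21Rik differed by -0.09 ± 0.13 at baseline, and all of these flanking differences missed the threshold in edgeR's test (adjusted p from 0.695 to 0.884).

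**Figure D2:**
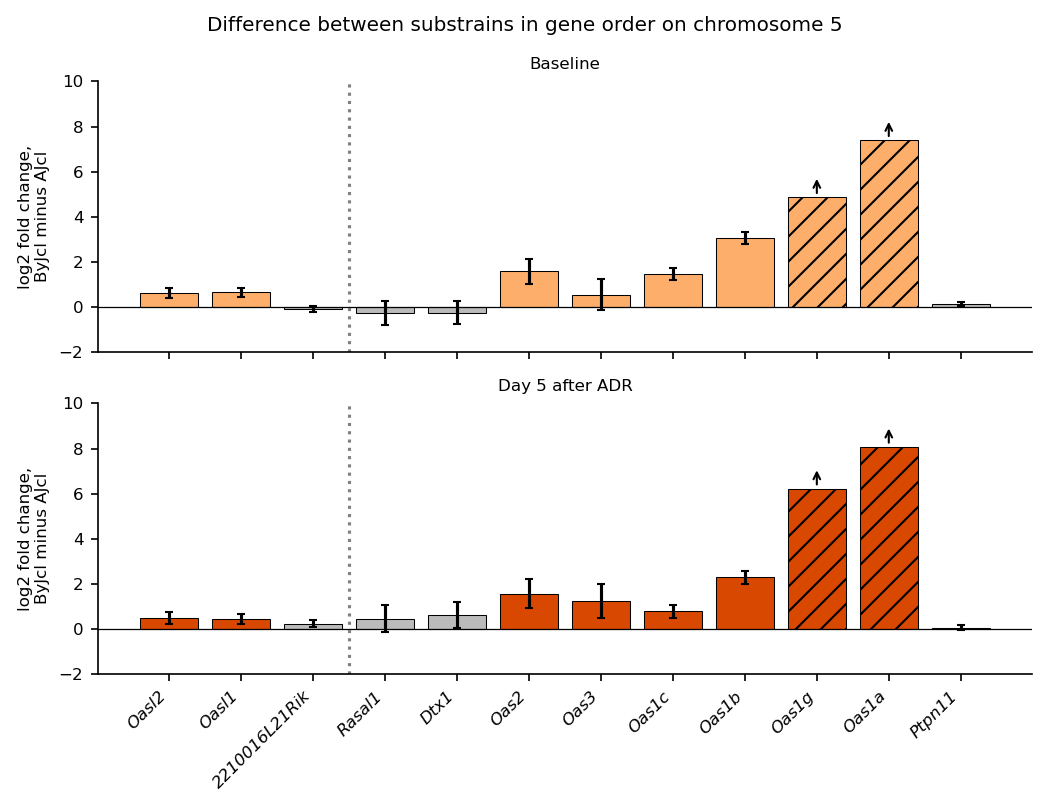
Log2 fold change of ByJcl against AJcl at baseline (upper panel) and Day 5 (lower panel), with the Oas genes (coloured) and flanking genes (grey) in their order on chromosome 5; the dotted line parts the 2 runs and distances are not to scale. Error bars are SE, and hatched bars with arrows are lower bounds for Oas1a and Oas1g, which had 0 counts in AJcl. The 3 tallest bars at each time are those of Oas1b, Oas1g and Oas1a, while Ptpn11 lies near 0.

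Leukocyte markers, of which 10 were listed (Ptprc, Cd68, Csf1r, Adgre1, Lyz2, C1qa, Itgax, Cd3e, Cd79a and Siglech), stood higher in ByJcl as well. Their summed level was 41.0 to 63.8 CPM in AJcl and 69.3 to 115.8 CPM in ByJcl at baseline, and 32.6 to 66.4 CPM against 70.1 to 130.1 CPM at Day 5. Of the 9 tested, 9 had a positive log2 difference at baseline (median 0.69) and 8 at Day 5 (median 1.08), and none passed the test. Siglech, a marker of plasmacytoid dendritic cells, was at 0 in 5 of the 12 libraries. Of 8 tubule markers none was called at baseline, where the median of their log2 differences was -0.99. Their summed level overlapped there, with 1045 to 3872 CPM in AJcl and 364 to 1510 CPM in ByJcl. At Day 5 none was called either, and the median was -1.11. The summed levels did not overlap then, with 1555 to 3915 CPM in AJcl (A-ADR1 included) and 273 to 1265 CPM in ByJcl. The part of these cells in the Oas levels was not tested.

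To compare levels between genes, CPM were divided by the merged exon length of each gene. In AJcl at baseline the order in CPM per kilobase was Oasl2 (3.50), Oasl1 (0.995), Oas1c (0.448), Oas1b (0.436), Oas2 (0.160) and Oas3 (0.0690), with Oas1a and Oas1g at 0. Oas1b and Oas1c did not differ beyond the spread of the 3 libraries, and the other steps did not overlap. In ByJcl at baseline the order was Oasl2 (5.27), Oas1b (3.56), Oasl1 (1.53), Oas1a (1.46), Oas1c (1.20), Oas1g (0.840), Oas2 (0.470) and Oas3 (0.0978). Oas1b thus moved from the fourth to the second place and lay above Oasl1 in every ByJcl library (3.13 to 4.19 against 1.37 to 1.69). From Oasl1 down to Oas2, each gene overlapped the next one in its range over libraries. The merged length of Oas1a, 7989 bases, includes the longer GENCODE transcripts, so its level per kilobase may be understated.

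The response to ADR was measured next, within each substrain. In AJcl, Oasl2 was 2.12-fold higher at Day 5 (log2 1.08 ± 0.26, adjusted p = 0.143), Oas1b 1.98-fold higher (0.99 ± 0.29, adjusted p = 0.249) and Oas1c 1.78-fold higher (0.83 ± 0.29, adjusted p = 0.332). These 3 genes and Oasl1 (0.64 ± 0.23, adjusted p = 0.352) lay above all baseline libraries in both fitted libraries of Day 5, as 13.4% of all genes tested did. Oas2 and Oas3 had log2 values of 1.03 ± 0.62 and 0.41 ± 0.77 (adjusted p = 0.667 and 0.911), with overlap. The value of Oas2 changed sign, to -0.64, without AJcl Day 5 replicate 3, and that of Oas3, to -0.054, with A-ADR1 added. In A-ADR1, outside the fit, 5 of the 6 genes stood above every AJcl baseline library, as 36.4% of all genes tested did. Oas1a and Oas1g had no counts from which a response could be estimated. In edgeR's test none of the 6 genes passed in AJcl, where 0.312% of all genes did; 4 of the 6 had an unadjusted p under 0.05, as 9.80% of all genes had, and DESeq2, which called 1.77% of all genes, called Oasl2 alone of the 6 (adjusted p = 0.00719).

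In ByJcl, Oasl2 rose 1.91-fold (log2 0.94 ± 0.23, adjusted p = 0.0293 in edgeR's test), and it was the single member of 8 that passed, where 10.6% of all genes passed and 5.75% did so upward. The lowest Day 5 library of Oasl2 (46.2 CPM) was above the highest at baseline (42.7 CPM) by little. The call was lost without ByJcl Day 5 replicate 1 (log2 0.66, adjusted p = 0.0720) and without ByJcl baseline replicate 1 or 3 (0.85 and 0.83, adjusted p = 0.0963 and 0.0971). It was also lost in a fit of the ByJcl libraries alone (adjusted p = 0.0565). The fitted log2 values of the other genes were 1.27 ± 0.57 for Oas1g (adjusted p = 0.202), 1.12 ± 0.67 for Oas3 (0.317), 1.01 ± 0.54 for Oas2 (0.257), 0.60 ± 0.37 for Oas1a (0.345) and 0.42 ± 0.20 for Oasl1 (0.217). Oas1b and Oas1c, at 0.21 ± 0.24 and 0.16 ± 0.25, had the smallest values (adjusted p = 0.632 and 0.747). All 8 values were positive, as 50.8% of all genes were, and Oasl1 and Oasl2 were the members whose groups did not overlap, against 18.0% of genes.

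**Figure D3:**
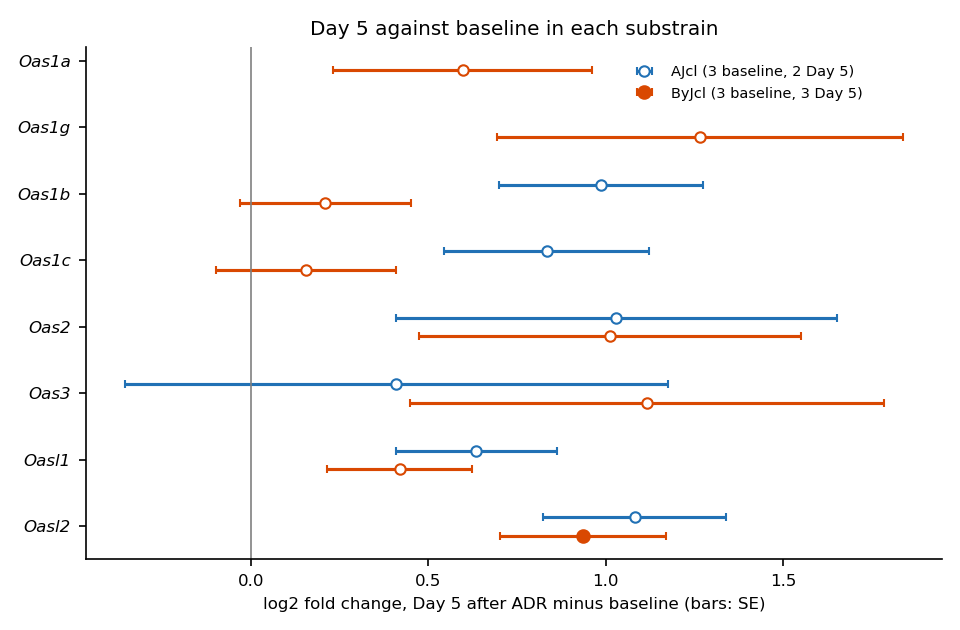
Log2 fold change of each Oas gene at Day 5 after ADR against baseline, with SE, in AJcl (blue) and ByJcl (orange). The filled point is Oasl2 in ByJcl, the single value that passed the test; open points did not pass, and Oas1a and Oas1g have no AJcl value because they had 0 counts there.

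The response was not shown to differ between the substrains. For the 6 genes with counts in both, the interaction (response in ByJcl minus response in AJcl) was largest in size for Oas1b, at -0.78 ± 0.38 (adjusted p = 0.634, 95% interval -1.61 to 0.05), followed by Oas3 at 0.71 (-1.54 to 2.96) and Oas1c at -0.68 ± 0.39 (adjusted p = 0.670, -1.53 to 0.17). It was -0.15 for Oasl2 (-0.92 to 0.62), -0.22 for Oasl1 (-0.89 to 0.46) and -0.02 for Oas2 (-1.67 to 1.63). These intervals are wide, and the missed threshold does not show that the substrains responded alike. None of the 6 passed edgeR's test or had an unadjusted p under 0.05, where 0% of all genes passed the test and 8.02% had such a p, and DESeq2 called none of the 6 and 22 genes in all (0.129%).

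The spread within groups was shared by much of the family. ByJcl Day 5 replicate 1 was the highest of all 12 libraries for 7 of the 8 genes, and Oas1c was highest in ByJcl Day 5 replicate 3. In AJcl, Day 5 replicate 3 was the higher of the fitted libraries for all 6 genes counted. ByJcl Day 5 replicate 1 and AJcl Day 5 replicate 3 also had the highest mean deviation of 30 interferon-stimulated genes from their group mean, 0.25 and 0.27 on the log2 scale. Oasl2 deviated in the same direction as these 30 genes in 11 of 11 fitted libraries, Oas3 and Oasl1 in 9, Oas1b and Oas2 in 8 and Oas1c in 7. Over the 6 ByJcl libraries alone, where they were counted, Oas1a did so in 6 and Oas1g in 5. Since deviations within a group sum to 0, these counts describe the libraries and were not tested.

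**Figure D4:**
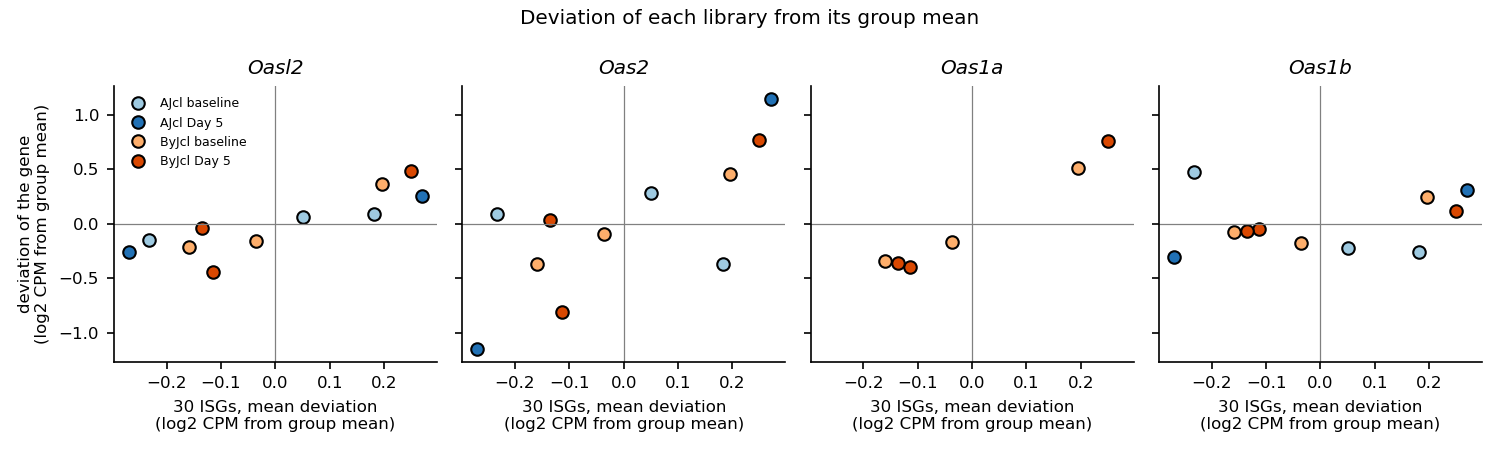
Deviation of Oasl2, Oas2, Oas1a and Oas1b from their group mean (vertical axis, log2 CPM) against the mean deviation of 30 interferon-stimulated genes (horizontal axis, log2 CPM) in the 11 fitted libraries, coloured by group; Oas1a is drawn for ByJcl only. Oasl2 has the sign of the interferon-stimulated genes in all 11 libraries, and Oas1b in 8.

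Of 4 genes that act on or below 2-5A, none passed the test in either substrain. The ByJcl values of Abce1, a ribosome recycling factor, and of the 2-5A phosphodiesterase Pde12 were 0.27 ± 0.10 and 0.31 ± 0.11 (adjusted p = 0.108 and 0.0871), and Akap7, whose product holds a 2-5A phosphodiesterase fold, had 0.31 ± 0.13 (adjusted p = 0.153). In AJcl the same genes had -0.13, 0.16 and 0.46 (adjusted p = 0.775, 0.745 and 0.280).

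The interferon transcripts were at or near 0. Of 9 ligand genes, Ifna1, Ifna2, Ifna4, Ifne, Ifnl2 and Ifnl3 had 0 counts in the 12 libraries, which allows up to 0.0693 CPM per library. Ifnb1 had 4 counts each in ByJcl Day 5 replicates 2 and 3 and 0 elsewhere, Ifnk had at most 6, and Ifng reached 18 counts in ByJcl Day 5 replicate 2 and at most 2 elsewhere. ByJcl Day 5 replicate 1, the highest library for 7 of the 8 Oas genes, had 0 counts of all 9. The same library had the highest summed leukocyte level (130.1 CPM) and the lowest summed tubule level (273 CPM) of the 12 libraries. The part of interferon or of cell composition in its Oas levels was not tested.

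Genes that sense RNA or DNA upstream of interferon changed in ByJcl in part. Of 12 tested, 3 rose there, Ifih1 (0.58 ± 0.13, adjusted p = 0.0218), Zbp1 (2.99 ± 0.77, adjusted p = 0.0325) and Eif2ak2 (0.47 ± 0.14, adjusted p = 0.0497), all cytoplasmic sensors of nucleic acids. Tlr7, an endosomal RNA receptor, fell by 1.29 (SE 0.20, adjusted p = 0.00327). The other 8 did not pass, and none of the 12 passed in AJcl, where 0.312% of all genes were called against 10.6% in ByJcl. The median log2 value of the 12 was 0.404 in AJcl and 0.345 in ByJcl. Mean levels in AJcl went from 27.0 to 40.0 CPM for Ifih1 and from 28.4 to 42.1 CPM for Eif2ak2. Those of Zbp1 and Tlr7 went from 0.275 to 0.580 CPM and from 25.1 to 12.0 CPM. With single libraries left out, Tlr7 passed in all 11 fits and Eif2ak2 in none of them. Zbp1 was at 6.43, 2.39 and 0.941 CPM in ByJcl at Day 5, and its log2 value was 2.04 without replicate 1 (adjusted p = 0.109). Its call was lost in 5 of the 11 fits, those without a ByJcl library other than Day 5 replicate 3. The call of Ifih1 was lost in 3, without ByJcl baseline replicate 1 or 3 or Day 5 replicate 1 (adjusted p up to 0.0798).

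Of 12 interferon receptors and signal transducers, none passed in AJcl and 3 rose in ByJcl, with median log2 values of 0.15 and 0.28. In ByJcl, Irf9, which binds the response element, rose by 0.73 ± 0.19 (adjusted p = 0.0373). Ifngr1, a chain of the interferon gamma receptor, rose there by 0.60 ± 0.15 (adjusted p = 0.0258). Mean levels in AJcl went from 43.6 to 69.4 CPM for Irf9 and from 84.6 to 105.7 CPM for Ifngr1. The call of Irf9 was lost without any 1 of the ByJcl libraries but Day 5 replicate 3, and that of Ifngr1 without baseline replicate 1 or 2 or Day 5 replicate 2 or 3 (adjusted p up to 0.120 and 0.100).

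Of 8 interferon regulatory and feedback genes, 3 rose in ByJcl, namely Irf7 (1.47 ± 0.28, adjusted p = 0.00919), Irf1 (1.15 ± 0.22, adjusted p = 0.00979) and Socs1 (1.17 ± 0.30, adjusted p = 0.0311). Irf7 and Irf1 passed with any 1 of the 11 libraries left out, and Socs1 did not without any 1 of the ByJcl libraries but Day 5 replicate 3 (adjusted p up to 0.113). Irf7, the amplifier of interferon production whose translation Oasl1 restrains, had 1.61 ± 0.30 in AJcl (adjusted p = 0.0610). Usp18, which dampens signalling at the receptor, had 0.64 ± 0.21 in ByJcl and 0.81 ± 0.23 in AJcl (adjusted p = 0.0753 and 0.239).

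Among 30 other interferon-stimulated genes, 16 rose in ByJcl, 14 did not pass and none fell, with a median log2 value of 0.81. The 5 with the smallest adjusted p were Gbp2 (2.28 ± 0.34), Igtp (2.03 ± 0.33), Ifit2 (0.74 ± 0.12), Gbp3 (1.88 ± 0.32) and Irgm1 (1.23 ± 0.22), with adjusted p between 0.00327 and 0.00751; Gbp2, Gbp3, Igtp and Irgm1 encode interferon-induced GTPases, and Ifit2 an antiviral RNA-binding protein. In AJcl, Ifit3 alone passed (1.31 ± 0.22, adjusted p = 0.0366), and the median of the 30 was 0.61. The median of the Oas genes was 0.77 in ByJcl over 8 genes and 0.91 in AJcl over 6, beside 0.01 and -0.01 over all genes. The interaction was called for none of the 30. Between substrains none of the 30 passed, at baseline or at Day 5, and 30 and 29 of them had positive differences, with medians of 0.41 and 0.61.

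Glomerular markers moved at the same time. All 6 podocyte markers fell in ByJcl at Day 5 (median log2 -1.37), though Podxl missed the threshold without ByJcl Day 5 replicate 2 (adjusted p = 0.0521). Of 9 leukocyte markers tested, Cd68 rose (1.17 ± 0.24, adjusted p = 0.0128) and the other 8 did not pass. The median of the 9 was -0.39 and 3 of them had values above 0, and the Cd68 call was lost without ByJcl baseline replicate 2 or Day 5 replicate 2 (adjusted p = 0.0536 and 0.0555). The summed leukocyte level in ByJcl was 69.3 to 115.8 CPM at baseline and 70.1 to 130.1 CPM at Day 5. Of 6 endothelial markers, Ehd3 fell by 0.81 (SE 0.20, adjusted p = 0.0271) and the other 5 did not pass, with a median of -0.22 and 2 of 6 values above 0. The Ehd3 call was lost without ByJcl baseline replicate 1 or 2 or Day 5 replicate 2 or 3 (adjusted p up to 0.102). The part of cell composition in the rise of Oasl2 was not tested.

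Genes with profiles like those of the family were ranked over the 11 fitted libraries among 13633 genes with a mean of at least 1 CPM. The profile of Oas1a was most like that of Ubtd1 (Pearson r of log2 CPM 0.996), Ppp1r3a (0.982) and Serpina1a (0.981). The points fall into a cluster per substrain, so these values rest on the gap between AJcl and ByJcl. Ubtd1 was at 1.46 to 1.85 CPM in the 6 AJcl libraries and at 20.3 to 24.9 CPM in the 6 ByJcl libraries. For deviations from the group mean, Oas2 was most like Traf3 (0.967) and Galnt17 (0.966), and Oasl2 most like Shisa5 (0.983), Wscd1 (0.976) and Rnf180 (0.972). These are descriptions over 11 libraries that share groups, without a test.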

How the data were processed

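Values came from the deposited counts, whole-number reads per gene symbol that the authors had made with FastQC, Trimmomatic, STAR on GRCm39 and featureCounts, without normalization or pooling. The gene annotation and the strand setting are not given in the sources used here. Between 77.1% and 82.9% of counts from 1 to 49 were even, and counts were therefore also halved as an alternative. Groups were taken from the labels. Each library is a separate mouse.

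Counts were fitted in R 4.3.3 with edgeR 4.0.16 (filterByExpr, TMM, glmQLFit, glmQLFTest) over 11 libraries with a coefficient for each group (7 residual degrees of freedom), and p-values over 17002 genes underwent Benjamini-Hochberg adjustment, with calls below 0.05. SE is the log2 fold change divided by the square root of F. DESeq2 1.42.0 was an alternative. The fit was tested on simulated data. Floors cover counting error only. Each group had 2 or 3 fitted libraries. Figures were made with matplotlib 3.10.9 in Python 3.11.15.

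The members and gene lists were chosen with earlier results of these data known. All members are named; from a list, called genes are named, at most 5 by smallest adjusted p, with genes that act on 2-5A, Irf7 and Usp18, and some genes that this rule names are not reported here. Alternatives were DESeq2, RLE size factors, 2 other filters (none, or 10 counts in 3 libraries), halved counts, Oas1 genes summed, A-ADR1 added, the groups of a contrast alone, a replicate block and each library left out.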

Additional observations from a re-analysis of the deposited data

Results flagged for a closer look

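AJcl Day 5 replicate 1 (A-ADR1) was outside the fits, and 5 of the 6 Oas genes counted in AJcl stood in it above every AJcl baseline library, as 36.4% of all genes tested did. Oas1b was at 1.82 CPM there against at most 1.22 CPM at baseline, and Oas1c at 1.93 CPM against at most 1.33 CPM. Oas2 was at 1.05 CPM (baseline at most 0.844 CPM), Oasl1 at 3.56 CPM (2.75 CPM) and Oasl2 at 29.6 CPM (23.6 CPM). Oas3, at 0.129 CPM, was below every AJcl baseline library, and Oas1a and Oas1g had 0 counts in it. These are values of 1 library without a test.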

How the results depend on the processing

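The count of Oas genes called was recomputed under each alternative. For the response to ADR in AJcl it was 0 and became 1 with DESeq2 (Oasl2). In ByJcl it was 1 (Oasl2) and became 0 with the groups of the contrast alone (adjusted p = 0.0565) and with the replicate block (adjusted p = 0.0515), and it ranged from 0 to 1 when single libraries were left out. Between substrains it was 3 at each time and became 1 of 5 when the Oas1 genes were summed. At Day 5 it was 0 with the groups of the contrast alone and ranged from 1 to 3 when single libraries were left out, with 1 without AJcl Day 5 replicate 2. The interaction stayed at 0 in every alternative run, and its fit on the groups of 1 contrast was not made because it needs all 4 groups.

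Of 698 recomputed log2 fold changes of the members, 663 kept their direction and call or, where no test was made, moved by less than the spread between libraries. Where a Day 5 library of AJcl was left out, the lone library was assumed to vary like the other groups. Oas3 in AJcl became -0.054 with A-ADR1 added, and Oas2 in AJcl ranged from -0.64 (without AJcl Day 5 replicate 3) to 1.76 with a library left out. The interaction of Oas2, -0.02, became 0.0022 with DESeq2, 0.0038 with RLE size factors, 0.018 with the filter of 10 counts, 0.021 with halved counts and 0.16 with A-ADR1 added, and ranged from -0.74 to 1.66 with a library left out. That of Oasl2 became 0.071 with A-ADR1 added and ranged from -0.41 to 0.15 with a library left out, and that of Oasl1 from -0.45 to 0.12. The cause of these changes was not tested.

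The number of all genes called also moved. In AJcl the count was 53, with 301 for DESeq2, 99 without a filter, 26 with the replicate block, 33 with its groups alone and 11 to 180 with a library left out. In ByJcl it was 1800, with 2694 for DESeq2, 1197 with A-ADR1 added and 680 to 2056 with a library left out. DESeq2 called 101 genes against 27 at baseline and 535 against 28 at Day 5 between substrains, where the groups alone gave 15 and 6 and single libraries left out gave 12 to 29 and 9 to 218; at Day 5 no filter gave 56 and A-ADR1 added gave 72. The interaction had 0 genes, with 22 for DESeq2 and 5 without AJcl Day 5 replicate 3. The 16 interferon-stimulated genes called in ByJcl became 11 to 19, over alternatives chosen after seeing the data, as were the fits without single libraries for the other listed genes.

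Same-numbered libraries come from different mice. Their deviations correlated at 0.374, 0.027 and 0.165 over the ByJcl pairs, and 3 of 6 libraries correlated best with their own number, so the numbers were not taken to pair the libraries; the block called 1592 genes in ByJcl, of which 1459 were among the 1800. Oas3 had 6 to 116 counts per library, and AJcl had 2 fitted libraries at Day 5.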
